A study of Caenorhabditis elegans with 14 samples.

Results

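Small RNAs of the C. elegans array strain HC125 were set against those of a line without array in which sid-1 silencing had been lost by generation F21, across all genes. The 6 libraries were chosen by the strain and line in their labels, 4 of HC125 and 2 of F21, out of 14 samples in the series, of which 12 had a column in the table of read counts. All animals were young adults. The libraries took up total RNA treated with a 5′ polyphosphatase, and reads of 21 to 26 nt were counted per gene.

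HC125 carries Psid-1::gfp, in which the sid-1 promoter drives gfp. The F21 animals are of strain HC83, and the labels call them non-array and de-silenced. The other groups with 2 libraries each were hrde-1;HC125, which is HC125 with a mutated hrde-1, the silenced non-array F6 animals of HC83, and wild type N2. HC125 and F21 differ in strain, in the array and in the state of sid-1 together, so these cannot be told apart. The sources used here do not give the make-up of the array beyond Psid-1::gfp, the history of the HC83 lines or whether replicates were separate cultures. The p-values therefore measure the spread between these samples, which may be technical.

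In C. elegans, double-stranded RNA or a piRNA marks a messenger RNA, and RNA-dependent RNA polymerases then copy it into many short antisense RNAs, the 22G siRNAs. These carry a triphosphate at their 5′ end, which the polyphosphatase step makes available for ligation. Argonaute proteins bind them, and the nuclear Argonaute HRDE-1 passes silencing on through the germline. SID-1 is the double-stranded RNA channel that lets RNAi spread between cells, and multicopy transgene arrays are a known trigger of silencing in worms. Reads counted at a gene are called its small RNAs here; since the sources used here do not give the strand setting of the count, sense reads may be included.

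The 4 HC125 libraries held 451389, 1095472, 1811918 and 3741687 reads assigned to genes, and the 2 F21 libraries held 3758704 and 514814. HC125 replicate 1 and F21 replicate 2 were the shallowest of the 6, and 3 counts there came to 6.45 and 5.83 counts per 1e+06 counts (CPM). Of 20541 genes, 10470 were tested, and they held 99.6% of the counts of these 6 libraries. On log CPM the HC125 libraries correlated with each other at 0.905 to 0.976, both F21 libraries at 0.944, and HC125 with F21 libraries at 0.878 to 0.976. Between the groups, the deepest libraries, HC125 replicate 4 and F21 replicate 1, gave the highest value, 0.976. The shallowest, HC125 replicate 1 and F21 replicate 2, gave the lowest, 0.878. Depth differed along with these values, so they cannot show how alike the groups were.

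sid-1 small RNAs, counted at the gene whose silencing the study follows, were about 3 times as abundant in HC125 as at F21. sid-1 (WBGene00004795, chromosome V, 5119970 to 5126916, plus strand) had 2542, 2398, 2031 and 2279 CPM in HC125, against 731 and 801 CPM at F21. Every HC125 library lay above both F21 libraries, and the log2 fold change was 1.60 ± 0.14 (SE, edgeR's quasi-likelihood test, adjusted p = 1.11e-05). hrde-1;HC125 had 557 and 506 CPM, the silenced F6 libraries had 4732 and 4159 CPM, and N2, at 836 and 786 CPM, was close to F21. The order of the group means was F6, HC125, N2, F21 and hrde-1;HC125, and the libraries of neighbouring groups in that order overlapped only between N2 and F21.

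The genes beside sid-1 were not called in HC125 against F21, though both upstream neighbours were under some alternatives. C04F5.9, the next gene upstream, 760 bases away on the other strand, had 92.5, 118.8, 69.9 and 68.9 CPM in HC125, against 54.8 and 42.8 CPM at F21. These groups did not overlap, and the log2 fold change of 0.74 ± 0.23 missed the threshold (edgeR, adjusted p = 0.458), but passed it with no low-count filter (0.0419) and without HC125 replicates 3 and 4 (0.016). The group means of C04F5.9 had the same order as those of sid-1. F6 averaged 486 CPM, N2 65.8 CPM and hrde-1;HC125 41.6 CPM (hrde-1;HC125 over F6 −3.54 ± 0.24, edgeR, adjusted p = 1.24e-08). C04F5.8, the second gene upstream, had 6.45, 11.04, 8.88 and 7.10 CPM in HC125, against 24.1 and 19.44 CPM at F21 (log2 fold change −1.42 ± 0.30, edgeR, adjusted p = 0.0683). It was called with no filter (adjusted p = 0.0123), without HC125 replicate 2 (0.0207) and without HC125 replicates 1 and 2 (0.0132). The group means of C04F5.8 did not have the order of those of sid-1. hrde-1;HC125 averaged 25.99 CPM, N2 23.42 CPM and F6 10.3 CPM. F6 and HC125, the highest groups at sid-1, were thus the lowest at C04F5.8. In hrde-1;HC125 over F6 it was called in the direction opposite to sid-1 (1.33 ± 0.30, edgeR, adjusted p = 0.00428). ugt-63, the third gene upstream, and F14F9.4, the third gene downstream, had at most 12.3 CPM in all 6 libraries (edgeR, adjusted p = 0.934 and 0.867). F14F9.5 and F14F9.8, between sid-1 and F14F9.4, had at most 1 count in each of the 6 libraries and were not tested. hrde-1 itself had 841, 839, 1273 and 1096 CPM in HC125, against 989 and 966 CPM at F21, groups that overlapped (log2 fold change 0.05 ± 0.16, edgeR, adjusted p = 1).

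Across all 10470 tested genes, 26 were called at a Benjamini-Hochberg adjusted p under 0.05, which is 0.248% of the genes tested. Of these, 14 (0.134%) were higher and 12 (0.115%) lower in HC125, and all 26 are annotated as protein coding. The median log2 fold change over all tested genes was 0.00. At an unadjusted p under 0.05 there were 665 genes (6.35%), and the libraries of both groups did not overlap at 1605 genes (15.3%), 741 of them higher (7.08%) and 864 lower (8.25%) in HC125. At least 2-fold apart were 1052 genes, of which 23 were called; the median standard error of a log2 fold change was 0.30. The total of 26 was 79 without HC125 replicate 2, 15 without HC125 replicate 3, 11 without HC125 replicate 4 and 16 without F21 replicate 1. aex-5, unc-54, arl-13, sid-1, prx-11, F55A11.6 and W04A8.2 remained called under each omission of 1 of the 6 libraries. With only the 2 groups in the fit, aex-5, unc-54, arl-13, sid-1, prx-11, W04A8.2, H14A12.5 and gid-7 remained called; F41C3.8 did not pass the low-count filter there, and the other calls were lost (edgeR, adjusted p between 0.0568 and 0.309).

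**Figure D1:**
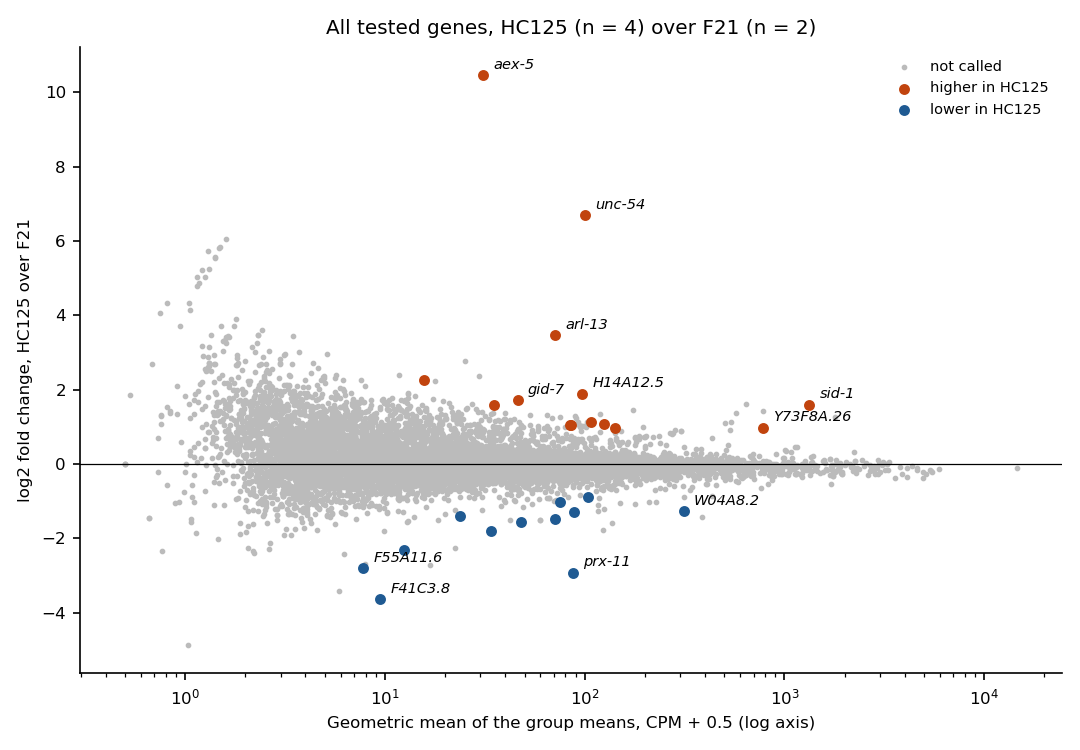
Log2 fold change of HC125 over F21 (y axis) against the geometric mean of both group means in CPM + 0.5 (x axis, log scale), 1 point per tested gene, with the 14 called higher genes in orange and the 12 called lower genes in blue. aex-5 is drawn at its fitted value; together with unc-54, arl-13 and prx-11 it stands well outside the cloud, while most of the other called genes lie at its edge.

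Neighbouring genes on chromosome I gave both of the largest rises. aex-5 (WBGene00000088, chromosome I, 14850052 to 14855827, minus strand), a protease gene of the prohormone convertase type, had 1187, 1077, 1013 and 947 CPM in HC125, against 0.803 and 0 CPM at F21, which came from 3 counts and 0 counts. The ratio was 1417, with a 95% counting interval of 485 to 6872 that covers counting error only (edgeR, adjusted p = 6.36e-12). Without F21 replicate 1 no count was left at F21, and the ratio was at least 172, from a floor of 3 counts over the group. unc-54 (WBGene00006789, chromosome I, 14855901 to 14863482, minus strand), which encodes the main muscle myosin of the body wall, had 968, 1031, 843 and 943.5 CPM in HC125, against 8.56 and 11.7 CPM at F21. Its groups stood far apart, at 103-fold (log2 fold change 6.69 ± 0.46, edgeR, adjusted p = 4.19e-05).

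aex-5 begins 73 bases beyond the 3′ end of unc-54 on the same strand. The genes that flank or overlap the pair were not called: maph-1.1, which overlaps the end of aex-5 on the other strand, averaged 1005 CPM in HC125 and 990.5 CPM at F21 (log2 fold change 0.03 ± 0.20, edgeR, adjusted p = 1), and F11C3.1, 4441 bases upstream of unc-54, 102 and 114 CPM (−0.16 ± 0.24, edgeR, adjusted p = 0.969). str-245, inside aex-5 on the other strand, averaged 1.08 CPM in HC125 and 2.75 CPM at F21 and was not tested. hrde-1;HC125 libraries also had high values, 661 and 576 CPM at aex-5 and 2705 and 1250 CPM at unc-54. In the F6 and N2 libraries aex-5 had at most 2.24 CPM and unc-54 between 13.3 and 40.4 CPM. The end of unc-54 is a widely used transgene terminator in worms; the sources used here do not say whether the array holds it, and whether the reads came from the array was not tested.

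arl-13 (WBGene00021349, chromosome I, 2065692 to 2069098, plus strand), a small GTPase of cilia, rose 10.99-fold. It had 224, 205, 180 and 218 CPM in HC125, against 14.4 and 33.0 CPM at F21 (log2 fold change 3.46 ± 0.25, edgeR, adjusted p = 7.14e-07), and its groups did not overlap. Without F21 replicate 1 the log2 fold change was 2.64 (adjusted p = 0.000333). hrde-1;HC125 had 538.5 and 461.5 CPM. F6, at 8.71 and 9.59 CPM, was on the side of F21, and N2, at 164 and 179 CPM, on that of HC125. rla-1, which overlaps the end of arl-13 on the other strand, and moag-4, 210 bases away, were not called (edgeR, adjusted p = 0.836 and 0.971).

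H14A12.5 and gid-7 were highest in HC125 of all 5 groups. H14A12.5 (chromosome III, 7467574 to 7469080) had 148, 238.5, 175 and 160.2 CPM in HC125, against 45.8 and 56.4 CPM at F21 (log2 fold change 1.89 ± 0.22, edgeR, adjusted p = 0.000265). gid-7 (chromosome V, 3749392 to 3757074), named after the yeast GID ubiquitin ligase, had 73.1, 78.9, 86.6 and 75.8 CPM in HC125, against 21.7 and 31.1 CPM at F21 (1.71 ± 0.20, edgeR, adjusted p = 0.00027). At both genes the groups did not overlap, and the next genes on either side were not called; mup-4, 10599 bases from H14A12.5, was at 11.5 CPM in HC125 and 3.28 CPM at F21 (1.92 ± 0.52, edgeR, adjusted p = 0.243). Without F21 replicate 1 neither was called (adjusted p = 0.083 for H14A12.5 and 0.131 for gid-7).

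pho-11, a gene of the acid phosphatase family on chromosome II, had 60.2, 37.4, 81.6 and 69.7 CPM in HC125, against 22.7 and 15.6 CPM at F21 (log2 fold change 1.59 ± 0.30, edgeR, adjusted p = 0.0394). Y55F3AM.11, on chromosome IV, had 19.35, 25.5, 51.6 and 35.5 CPM in HC125, against 7.76 and 5.83 CPM at F21 (2.25 ± 0.39, edgeR, adjusted p = 0.0167). Y73F8A.26, also on chromosome IV, had 837, 1008, 1335 and 1180 CPM in HC125, against 499 and 620.2 CPM at F21 (0.98 ± 0.18, edgeR, adjusted p = 0.0234). The groups did not overlap at any of these genes, and within HC125 the libraries of pho-11 and Y55F3AM.11 were more than 2-fold apart. At Y73F8A.26 N2, with 1358 and 1194 CPM, lay on the side of HC125. F6 and hrde-1;HC125 averaged 494 and 228.5 CPM there. The call of pho-11 ended without any single library but HC125 replicate 2 (adjusted p between 0.0614 and 0.435). Among such omissions, that of Y55F3AM.11 ended without HC125 replicate 4, F21 replicate 1 or F21 replicate 2 (0.0601, 0.526 and 0.102), and that of Y73F8A.26 without these or HC125 replicate 3 (between 0.0518 and 0.476).

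**Figure D2:**
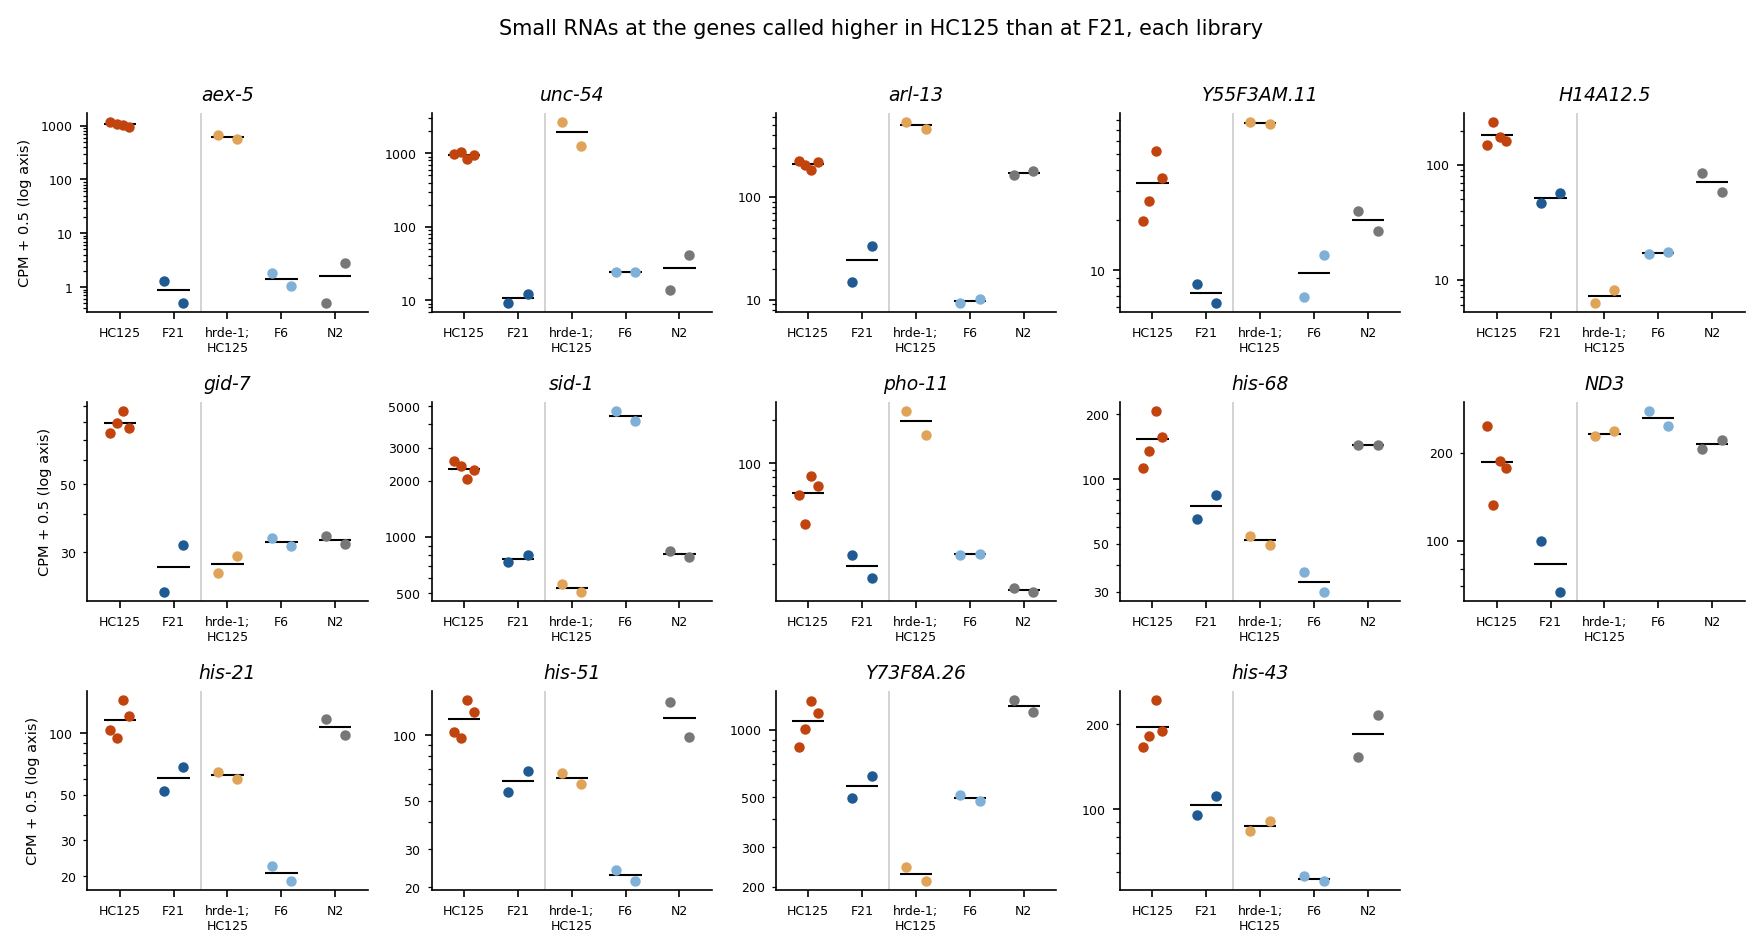
CPM + 0.5 in each library (y axis, log scale, differing between panels) of the 14 genes called higher in HC125 than at F21, with HC125 and F21 to the left of the grey line and hrde-1;HC125, F6 and N2 to its right; points are libraries and bars are means. The 4 HC125 points lie above both F21 points in every panel, and at aex-5 the 2 F21 libraries lie at 0.803 and 0 CPM.

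The other higher genes were 4 histone genes and 1 gene of the mitochondrial genome. his-68, his-21, his-51 and his-43 all span 384 bases, and their log2 fold changes were 1.13, 1.05, 1.03 and 0.97 (edgeR, adjusted p between 0.0379 and 0.0486). his-43 had the most small RNAs of them, at 166, 181, 244 and 189 CPM in HC125, against 94.7 and 111 CPM at F21. Its groups did not overlap, and N2, at 153 and 215.5 CPM, lay on the side of HC125. The other array group, hrde-1;HC125, lay under F21 at his-43, with 83.0 and 90.05 CPM, and F6 had 57.4 and 55.1 CPM. All 4 calls ended without HC125 replicate 3, HC125 replicate 4, F21 replicate 1 or F21 replicate 2, where adjusted p lay between 0.0598 and 0.797. Histone genes of 1 type are near-identical copies, so reads may be split between them, and these calls are not independent of each other.

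Among all 71 tested histone genes, which encode the proteins that package DNA, 4 rose, none fell and 65 fold changes were positive, with a median log2 fold change of 0.57. Over all 10470 tested genes 0.134% were called higher, 6.35% had an unadjusted p under 0.05 and 5310 fold changes were positive. Grouped after the values were seen by the length of the annotated gene, the 15 genes of 384 bases had a median of 0.97, 14 of them at an unadjusted p under 0.05. The 15 genes of 411 bases had a median of 0.67 and the 15 of 312 bases one of 0.60, all of these positive and none called. The 5 genes of 369 bases and the 10 of 372 bases had medians of 0.07 and 0.13. Summed over the 15 genes of 384 bases, HC125 had 2110, 1968, 3235 and 2409 CPM, against 1262 and 1563 CPM at F21. At 312 bases the sums were 1518, 1156, 2719 and 2052 CPM in HC125, against 1212 and 1102 CPM at F21, and the groups overlapped. HC125 replicate 3 gave the highest sum of HC125 at every one of these lengths.

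ND3, a subunit of mitochondrial complex I (mitochondrial genome, 11356 to 11691), had 247, 132, 188 and 177.5 CPM in HC125, against 99.3 and 66.1 CPM at F21 (log2 fold change 1.07 ± 0.21, edgeR, adjusted p = 0.0468). It overlaps the next annotated gene. The call ended without HC125 replicate 3, HC125 replicate 4, F21 replicate 1 or F21 replicate 2 (adjusted p between 0.103 and 0.392). All 12 mitochondrial protein genes were tested; 12 fold changes were positive, 10 had an unadjusted p under 0.05 (6.35% over all tested genes), and the median was 1.08. Together they took 0.738% to 1.71% of the counts in HC125, against 0.527% to 0.869% at F21, so the shares overlapped. F6 and N2 lay at 1.76% to 1.91% and 1.14% to 1.34%.

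Among the 12 genes with fewer small RNAs in HC125, prx-11 had the smallest adjusted p. prx-11 (WBGene00004196, chromosome I, 12971615 to 12972259, plus strand), a gene of peroxisome biogenesis, had 23.7, 47.5, 23.3 and 28.4 CPM in HC125, against 183 and 301 CPM at F21. It fell 7.62-fold with no overlap (log2 fold change −2.93 ± 0.25, edgeR, adjusted p = 2.58e-05). hrde-1;HC125 lay lowest, at 12.4 and 15.9 CPM, and the F6 libraries at 223.5 and 258 CPM and the N2 libraries at 273 and 277 CPM were close to F21. prx-11 is inside gale-1 on the same strand, and gale-1, at 20.6 CPM in HC125 and 24.8 CPM at F21, was not called (−0.16 ± 0.27, edgeR, adjusted p = 1). Of 13 tested peroxisome genes, prx-11 alone was called, and the median log2 fold change was −0.11.

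W04A8.2 (chromosome I, 13840704 to 13841937) fell 2.40-fold, with 174, 247, 195 and 187 CPM in HC125, against 482 and 488 CPM at F21 (log2 fold change −1.27 ± 0.16, edgeR, adjusted p = 0.000529). Both F21 libraries lay above the other 10 libraries; hrde-1;HC125 had 87.2 and 63.9 CPM, F6 had 420 and 338 CPM, and N2 had 324 and 342 CPM. F55A11.6 (chromosome V, 11776838 to 11783429) had 2.15, 2.55, 1.67 and 3.42 CPM in HC125, against 18.5 and 21.4 CPM at F21 (−2.81 ± 0.33, edgeR, adjusted p = 0.000265). The HC125 values came from 1, 3, 3 and 13 counts, and N2, at 2.22 and 3.37 CPM, was equally low. hrde-1;HC125 was highest of all groups there, at 91.0 and 75.5 CPM, and F6 had 29.0 and 20.6 CPM. At F55A11.6 HC125 and F21 stood apart. F55A11.6 overlaps F55A11.11 on the same strand, which averaged 1.24 CPM in HC125 and 2.44 CPM at F21 and was not called. W04A8.2 overlaps W04A8.4 on the other strand.

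On chromosome X 4 of 990 tested genes were called (0.404%), against 0.35% on chromosome I and 0.248% over all genes. All 4 were lower in HC125, where 0.115% of all tested genes and 3 of 1998 on chromosome I were called lower. These are few genes, and whether chromosome X differs was not tested. suca-1, a subunit of the succinyl-CoA ligase of the citric acid cycle, had 30.1, 14.4, 14.4 and 15.5 CPM in HC125, against 53.8 and 66.1 CPM at F21 (log2 fold change −1.80 ± 0.27, edgeR, adjusted p = 0.00369). sec-16A.2, a Sec16 family gene of endoplasmic reticulum exit sites, had 60.2, 40.8, 68.3 and 49.2 CPM in HC125, against 109 and 173 CPM at F21 (−1.31 ± 0.21, edgeR, adjusted p = 0.00848). lnp-1, the Lunapark gene of the endoplasmic reticulum, and asb-2, a subunit of the mitochondrial ATP synthase, had smaller falls (−1.03 ± 0.18 and −0.89 ± 0.18, edgeR, adjusted p = 0.0217 and 0.0439). The groups did not overlap at any of the 4 genes. Among omissions of 1 library, calls ended for suca-1 without F21 replicate 1 (adjusted p = 0.0712), for sec-16A.2 without HC125 replicate 4 or F21 replicate 2 (0.0601 and 0.109), for lnp-1 without HC125 replicate 3, HC125 replicate 4 or either F21 replicate (0.0645 to 0.177), and for asb-2 without HC125 replicate 1, HC125 replicate 4 or either F21 replicate (0.0854 to 0.45).

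nas-36, an astacin protease of molting, had 47.3, 60.3, 24.98 and 42.6 CPM in HC125, against 132 and 97.2 CPM at F21 (log2 fold change −1.48 ± 0.23, edgeR, adjusted p = 0.00909). Y56A3A.7 had 15.1, 20.4, 38.3 and 30.8 CPM in HC125, against 83.2 and 87.5 CPM at F21 (−1.57 ± 0.23, edgeR, adjusted p = 0.00374). dmd-9, of the DM-domain transcription factor family, had 10.8, 16.1, 16.1 and 12.6 CPM in HC125, against 34.8 and 42.8 CPM at F21 (−1.40 ± 0.28, edgeR, adjusted p = 0.0468). None of these overlapped between the groups. Adjusted p rose past the threshold for nas-36 without HC125 replicate 4 or F21 replicate 1 (0.0601 and 0.459), for Y56A3A.7 without F21 replicate 1 (0.131), and for dmd-9 without any single library but HC125 replicate 2 (0.0926 to 0.335).

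The remaining 2 lower genes had low and uneven values. F41C3.8 had 4.30, 0.849, 2.78 and 3.16 CPM in HC125, against 47.6 and 5.83 CPM at F21 (log2 fold change −3.65 ± 0.54, edgeR, adjusted p = 0.0163). F41C3.8 lies inside F10G7.10 on the other strand. F10G7.10 averaged 36.5 CPM in HC125 and 58.7 CPM at F21 and was not called (−0.51 ± 0.23, edgeR, adjusted p = 0.768). The 2 F21 libraries of F41C3.8 were far apart, and the lower of them was near the highest HC125 library. Without F21 replicate 1, which leaves 3 counts at F21, the ratio of HC125 to F21 was 0.476, with a 95% counting interval of 0.141 to 2.5 (edgeR, adjusted p = 0.92), and the call also ended without HC125 replicate 3 or 4 (0.103 and 0.0913). islo-1 had 6.45, 4.25, 5.55 and 5.79 CPM in HC125, against 33.5 and 17.5 CPM at F21, without overlap (−2.32 ± 0.43, edgeR, adjusted p = 0.0332). It was −1.67 without F21 replicate 1 (adjusted p = 0.836) and was also not called without HC125 replicate 1, 3 or 4 (0.059, 0.103 and 0.102).

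**Figure D3:**
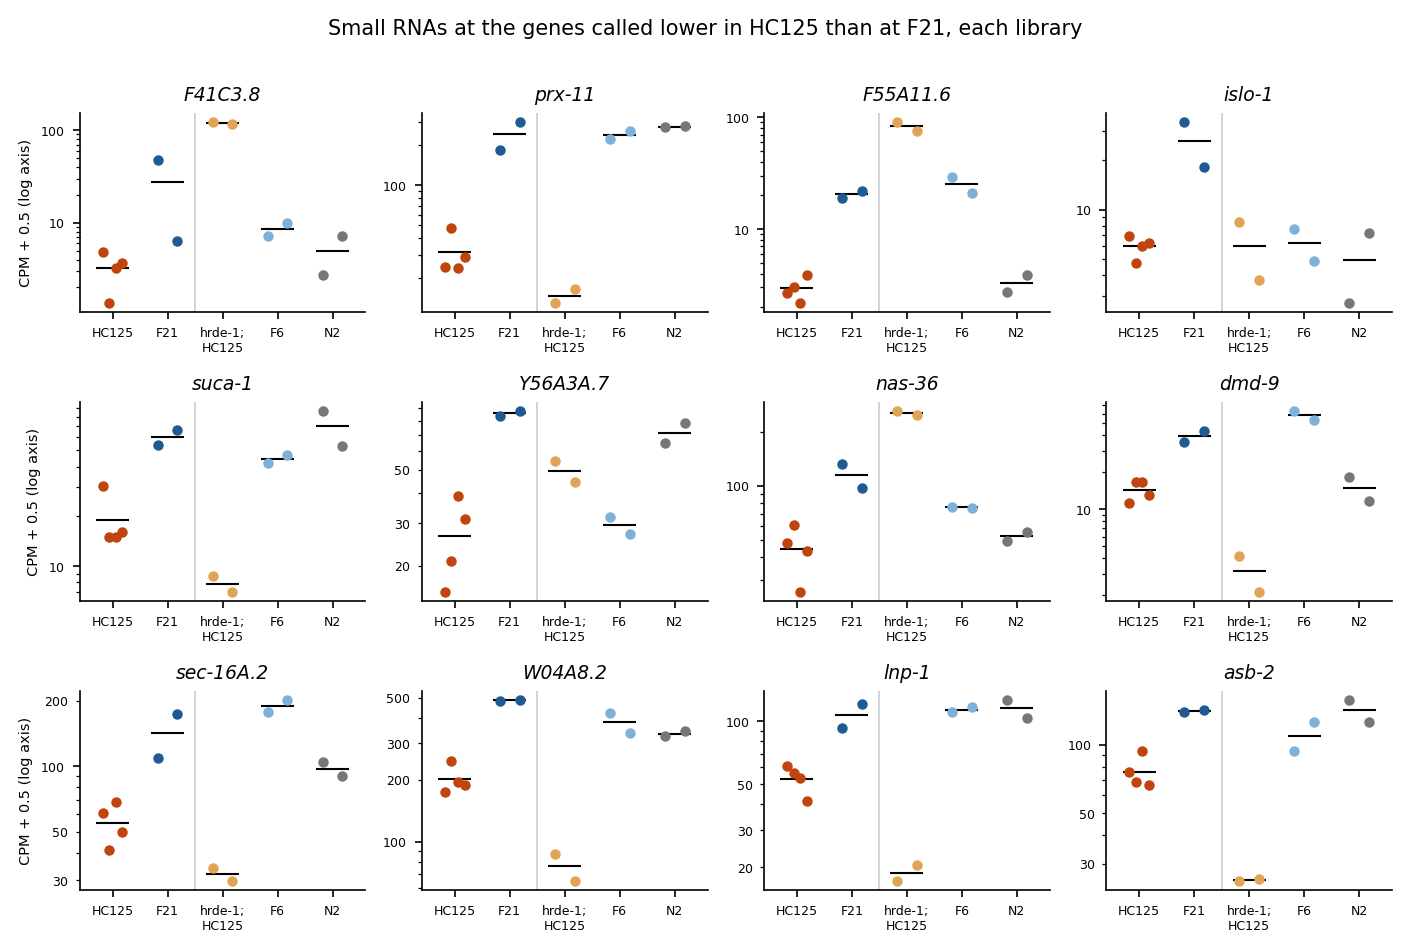
CPM + 0.5 in each library (y axis, log scale, differing between panels) of the 12 genes called lower in HC125 than at F21, in the same layout, with points for libraries and bars for means. F21 lies above HC125 in every panel; at prx-11, suca-1, sec-16A.2, W04A8.2 and lnp-1 both array groups lie below the other 3 groups.

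Where the called genes stood in the other groups was compared next, as a description of all 12 libraries. At 4 of the higher genes, aex-5, unc-54, arl-13 and pho-11, all 6 array libraries (HC125 and hrde-1;HC125) lay above the 6 others, and at 5 of the lower genes, prx-11, suca-1, W04A8.2, lnp-1 and sec-16A.2, they lay below. Over all tested genes this held at 18 and 78 genes, 0.917% together. The 4 libraries of HC83, F6 and F21, lay below all 8 others at arl-13 and Y55F3AM.11 and above them at sec-16A.2 and dmd-9, a pattern of 1.69% of all tested genes. HC125 alone lay above the other 8 libraries at aex-5, H14A12.5 and gid-7 (0.411% of tested genes in either direction). F21 alone lay above the other 10 at W04A8.2, Y56A3A.7 and islo-1 and below them at unc-54 and ND3 (2.68%). The selection of these genes used the values of HC125 and F21, so their order in those groups is not independent of it.

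hrde-1;HC125 against F6 also sets array animals against non-array HC83 animals, and shares no library with HC125 against F21. It differs further in the hrde-1 mutation and in the silenced state of sid-1 at F6. In that pair 1816 genes were called (17.3%), 769 higher (7.34%) and 1047 lower (10%) in hrde-1;HC125. Of the 14 genes higher in HC125 than at F21, 8 were higher and 3 lower in hrde-1;HC125 than at F6, and 3 were not called. Among the 8, which included his-21, his-51 and his-43, aex-5, unc-54, arl-13, Y55F3AM.11 and pho-11 had log2 fold changes of 9.36 ± 0.31, 6.37 ± 0.41, 5.76 ± 0.26, 3.04 ± 0.34 and 3.08 ± 0.28 there (edgeR, adjusted p at most 3.51e-06). The hrde-1;HC125 means of his-21 and his-51 were nearer F21 than HC125, and that of his-43 was under both. F6 means lay below HC125 and F21 at these histone genes. The 3 in the opposite direction were sid-1 (−3.06 ± 0.16), H14A12.5 (−1.33 ± 0.29) and Y73F8A.26 (−1.11 ± 0.19), and his-68, ND3 and gid-7 were not called (edgeR, adjusted p = 0.0649, 0.652 and 0.439).

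Of the 12 genes lower in HC125 than at F21, 7 were also lower in hrde-1;HC125 than at F6. prx-11 fell by 4.10 ± 0.30 and dmd-9 by 4.33 ± 0.33 on the log2 scale (edgeR, adjusted p = 9.74e-08 and 3.12e-08), and asb-2, lnp-1, W04A8.2, sec-16A.2 and suca-1 fell by 2.13 to 2.64. F41C3.8 (3.88 ± 0.47), nas-36 (1.77 ± 0.24), F55A11.6 (1.75 ± 0.24) and Y56A3A.7 (0.77 ± 0.25) were higher in hrde-1;HC125 than at F6. islo-1 was not called (0.01 ± 0.46, edgeR, adjusted p = 0.997).

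**Figure D4:**
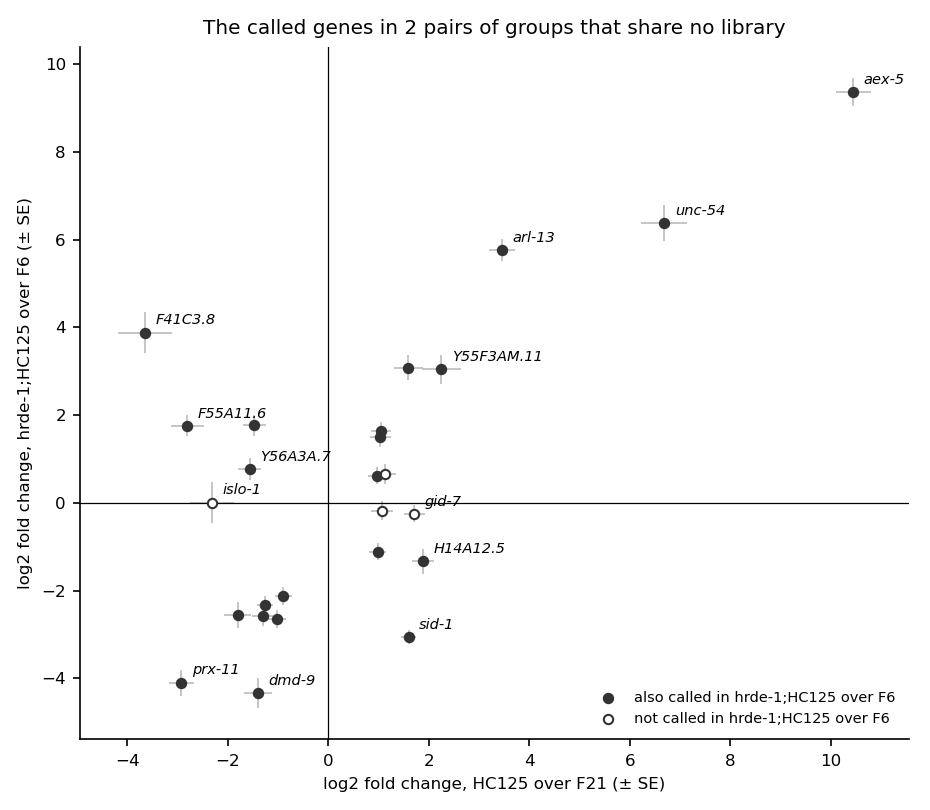
Log2 fold change ± SE of the 26 called genes in HC125 over F21 (x axis) and in hrde-1;HC125 over F6 (y axis), with filled points where the second pair was also called. aex-5, unc-54 and arl-13 are high in both, prx-11 is low in both, and sid-1, H14A12.5 and F41C3.8 lie in the quadrants of opposite sign.

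sid-1 was the 1 called gene in the lists for the RNAi machinery. Of 8 systemic RNAi genes 6 were tested, with 1 higher (sid-1) and a median log2 fold change of −0.02; rsd-6 averaged 73.8 ± 4.80 CPM in HC125 and 94.4 ± 6.96 CPM at F21 (SD, n = 4 and 2; edgeR, adjusted p = 0.796). None of 21 Argonautes (median 0.02), 14 nuclear RNAi factors (−0.02) or 30 siRNA biogenesis genes (−0.07) was called; with 0.248% of all tested genes called, lists of this size need hold none. The smallest p among these belonged to nrde-3, the nuclear Argonaute of somatic cells, at 13.8 ± 5.05 CPM in HC125 and 25.2 ± 2.78 CPM at F21 (SD, n = 4 and 2; edgeR, adjusted p = 0.758). The RNA-dependent RNA polymerase genes rrf-1 and ego-1 had 199 ± 15.2 and 370 ± 36.8 CPM in HC125, against 184 ± 35.2 and 374 ± 12.4 CPM at F21 (SD, n = 4 and 2).

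Lists of known small RNA targets and large gene families held no called gene either, which at the 0.248% over all tested genes is no result about them. All 5 listed WAGO-class targets, which secondary siRNAs silence, had negative fold changes, with a median of −0.21; bath-45 had 5088 ± 113 CPM in HC125 and 5899 ± 295 CPM at F21 (SD, n = 4 and 2; edgeR, adjusted p = 0.871). The 9 ERGO-1-class targets had a median of −0.05. Of 248 F-box, MATH and BTB genes, which include many of the richest small RNA loci, none was called and 69 fold changes were positive (median −0.19). fbxa-216 had the smallest p of them, with 75.9 ± 27.9 CPM in HC125 and 246 ± 153 CPM at F21 (SD, n = 4 and 2; edgeR, adjusted p = 0.322). The 63 tested chemoreceptor genes had a median of −0.13 and 46 C-type lectins one of 0.26, with none called.

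Lists of tissue genes mostly had positive medians without calls, where over all 10470 tested genes the median was 0.00, 5310 fold changes were positive, 6.35% had an unadjusted p under 0.05 and 0.248% were called. In whole animals, fewer cells of a type and less small RNA per cell cannot be told apart. All 31 major sperm protein genes had positive fold changes (median 0.87), none was called and 1 had an unadjusted p under 0.05; they took 0.0425% to 0.137% of the counts in HC125 and 0.0402% to 0.0618% at F21. Of 36 spermatogenesis genes 30 were positive and 2 had an unadjusted p under 0.05 (median 0.76). spe-47, with the smallest p, was at 141 ± 7.94 CPM in HC125 and 90.3 ± 4.30 CPM at F21 (SD, n = 4 and 2, edgeR, adjusted p = 0.131). The other, spe-46, was low, at 7.86 CPM in HC125 and 2.04 CPM at F21. Of 63 cuticle collagens 49 were positive and 24 had an unadjusted p under 0.05 (median 0.69), among them col-20 with 45.03 ± 11.59 CPM in HC125 and 19.8 ± 0.444 CPM at F21 (SD, n = 4 and 2; edgeR, adjusted p = 0.11). The 15 intestine genes had a median of 0.61, and 5 had an unadjusted p under 0.05. These 5 were all yolk protein genes, vit-1, vit-3, vit-4, vit-5 and vit-6. vit-3 was at 376 ± 88.9 CPM in HC125 and 202 ± 85.3 CPM at F21 (SD, n = 4 and 2, edgeR, adjusted p = 0.454). The intestine genes outside the yolk family were low. The richest of them, asp-1, averaged 18.7 CPM in HC125 and 13.5 CPM at F21, and cpr-5 fell (−0.44, not called). Ribosomal protein genes had 66 of 74 positive fold changes (median 0.33), and none was called. The 45 germline and oocyte genes had a median of −0.03 and the 16 neuron genes one of 0.01, none of them called.

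Among 28 tested muscle genes only unc-54 was called (median 0.44). Of the 28, 20 fold changes were positive and 6 had an unadjusted p under 0.05, against 6.35% of all tested genes. Genes that fell without a call included unc-78 (−0.88) and pat-6 (−0.35). unc-52, the basement membrane perlecan of muscle, had 17.03 ± 3.21 CPM in HC125 and 6.56 ± 1.71 CPM at F21, and the actin gene act-2 had 177 ± 17.4 CPM in HC125 and 122.5 ± 8.34 CPM at F21 (SD, n = 4 and 2; edgeR, adjusted p = 0.286 and 0.455). Of 9 tested genes often used as transformation markers, unc-54 was the 1 called (median −0.03). lin-15B, a synMuv gene whose locus serves as such a marker, had 103.7 ± 11.3 CPM in HC125 and 161 ± 11.8 CPM at F21 (SD, n = 4 and 2; log2 fold change −0.61 ± 0.15, edgeR, adjusted p = 0.132). The 5 tested genes at and beside sid-1 had a median of 0.74, with sid-1 called.

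**Figure D5:**
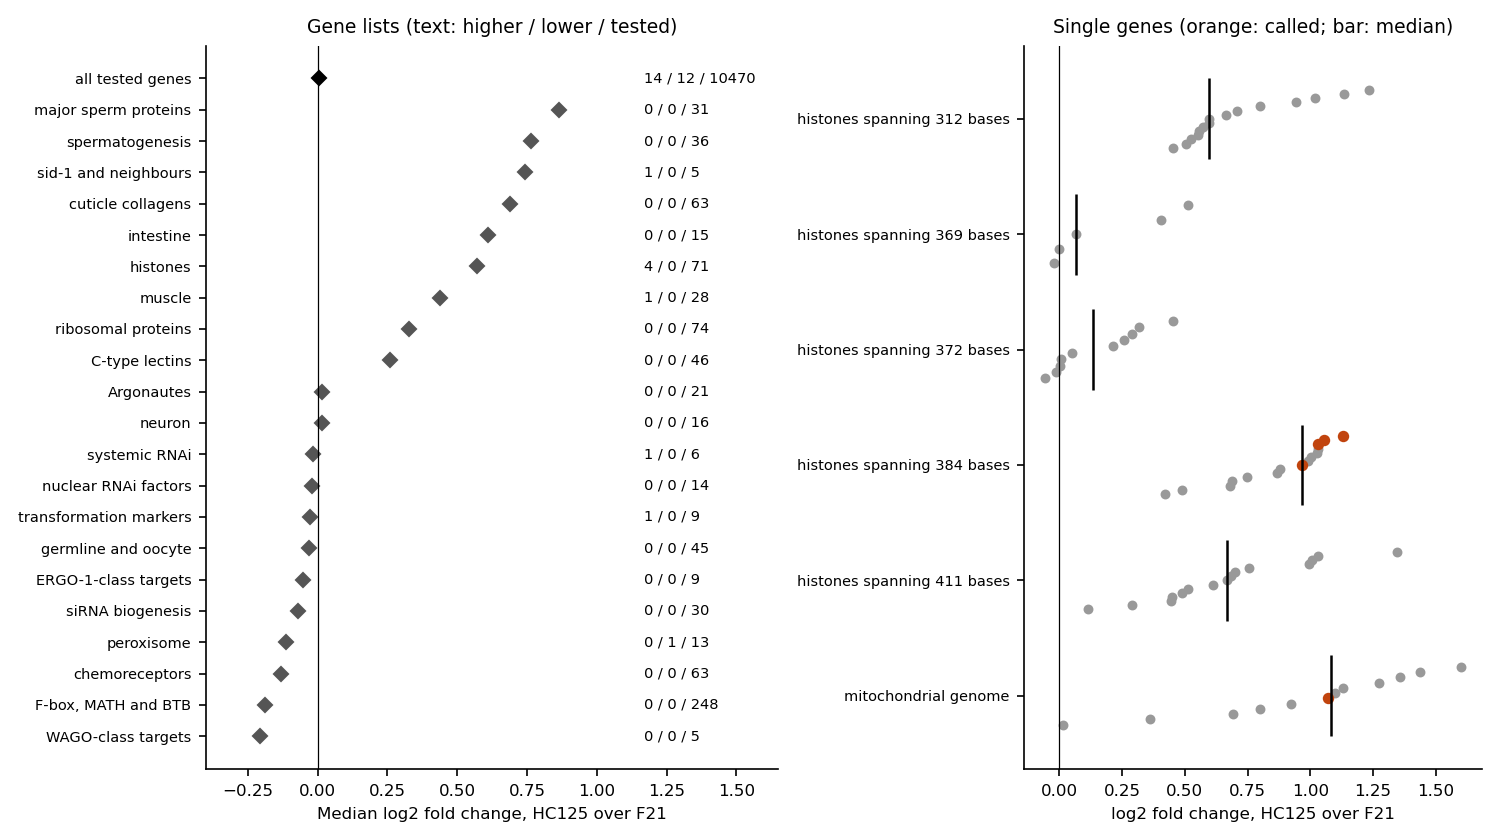
Left, the median log2 fold change of HC125 over F21 (x axis) of each gene list, with its numbers of higher, lower and tested genes, and of all tested genes at the top; right, single histone genes by annotated length in bases and mitochondrial genes, with called genes in orange and bars at medians. Histones of 384 bases and mitochondrial genes lie highest on the right, at medians of 0.97 and 1.08.

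The most abundant loci of these 6 libraries differed little between the groups. Y52B11A.18, the richest and annotated as a pseudogene, had 9830, 7573, 22660 and 16200 CPM in HC125, against 14970 and 15570 CPM at F21, so that HC125 spread on both sides of F21 (edgeR, adjusted p = 1). The other 9 of the 10 richest genes, F37H8.2, W09C5.12, bath-45, zip-2, got-1.2, C47G2.8, F15D4.5, eri-6 and B0250.8, had log2 fold changes between −0.39 and −0.10 and were not called. At W09C5.12, bath-45, got-1.2, C47G2.8, F15D4.5 and eri-6 all HC125 libraries lay under both F21 libraries, as at 8.25% of all tested genes. At F37H8.2, zip-2 and B0250.8 the groups overlapped. The largest of these falls was at got-1.2, with 4258, 3793, 4542 and 4640 CPM in HC125, against 5600 and 5719 CPM at F21 (−0.39 ± 0.16, edgeR, adjusted p = 0.68).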

How the data were processed

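Young adult animals were synchronized by timed egg laying, and small RNA libraries were made from total RNA after polyphosphatase treatment with 12 PCR cycles and size selection, per the labels' protocols. The authors deposited read counts for each gene in 1 table, unnormalized, and its name gives a read length of 21 to 26 nt. Bowtie2 and HTSeq were used, per the submitters' processing notes; versions, genome build, annotation, strand setting and how multi-mapping reads were handled were not given in the sources used here. Overlapping genes and near-identical copies are therefore uncertain. Without molecular identifiers, PCR reads are not independent, so intervals and floors cover counting error only.

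Names and coordinates came from the Ensembl release 115 annotation of WBcel235 by gene ID (20194 of 20541 IDs matched, 347 did not), with RefSeq symbols at the same coordinates where several IDs shared a symbol; the build behind the counts may differ. In R 4.3.3, edgeR 4.0.16 was fitted to 12 libraries in 5 groups, so that groups of 2 share 1 estimate of the spread (filterByExpr with a minimum count of 10 and a minimum total of 15, TMM scaling, robust quasi-likelihood F test, two-sided, Benjamini-Hochberg over 10470 genes). A gene was called at an adjusted p under 0.05. CPM values are counts per 1e+06, TMM-scaled; SE was derived from the F statistic. For a group with 1 to 3 counts a ratio with a 95% exact Poisson interval replaces the fold; for 0 counts the floor was 3 counts over the group. The test was tried on simulated data.

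Named were sid-1, hrde-1, the 3 genes on each side of sid-1, all called genes, the next gene on each side of the 8 largest rises and falls, up to 3 called members of each list and the 10 richest genes. The uncalled list members were named after their values were seen. The comparison and the 21 lists (from general knowledge, families from gene symbols) were chosen with earlier results of these data known. The alternatives were other scalings, no filter, a replicate block, DESeq2 1.42.0, only the 2 groups, and leaving out libraries. Counts agreed in all 12 libraries between 64 tested genes and another tested gene, none of them called. The 2 HC125 samples described as 5′-dependent are not analysed here.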

Additional observations from a re-analysis of the deposited data

Results flagged for a closer look

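suca-1 had 30.1 CPM in HC125 replicate 1, far from the other 3 HC125 libraries, which lay between 14.4 and 15.5 CPM. The gap to the nearest of them was 0.931 of the range of the group, above Dixon's 95% critical value for 4 libraries. The value came from 14 counts, and it remained under both F21 libraries, at 53.8 and 66.1 CPM. Of 31 genes looked at in this way, 1 had such a library, and chance gives about 1 in 20.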

How the results depend on the processing

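sid-1 stayed called with the same sign under every alternative run, at log2 fold changes of 1.5 to 1.75, and none of the 26 called genes changed sign. aex-5, unc-54, arl-13, sid-1, prx-11 and W04A8.2 were called under each of them. The number of called genes moved more. Of 26 genes (14 higher and 12 lower), there were 287 (196 and 91) with no low-count filter, 53 (31 and 22) with DESeq2, and 9 (6 and 3) with only the 2 groups in the fit, 8 of the 26 among them. With no filter 261 genes were added, of which 1 had not been tested before; the cause was not tested. Without HC125 replicates 1 and 2 together there were 158 (88 and 70), and without HC125 replicates 3 and 4 together 130 (111 and 19). At some genes replicates 1 and 2 lay apart from 3 and 4. Y52B11A.18 had 9830 and 7573 against 22660 and 16200 CPM, and hrde-1 841 and 839 against 1273 and 1096 CPM. At W04A8.2, with 174 and 247 against 195 and 187 CPM, they did not. Why the totals rose was not tested. Leaving out 1 library gave 11 to 79 genes, 4 to 50 of them higher and 5 to 29 lower. Replicate numbers were shared in the labels, and the deviations of libraries of the same number correlated at −0.0339 and 0.0469 in the 2 pairs. The deviations of the 2 F21 libraries mirror each other, so these values are not independent and cannot decide whether numbers mark pairs. A fit with a replicate block called 73 genes (51 and 22), 17 of the 26 among them. Only HC125 has replicates 3 and 4, so this fit in effect compared HC125 replicates 1 and 2 with F21. It lost his-21, his-51, his-68, suca-1, lnp-1, F41C3.8, islo-1, dmd-9 and Y55F3AM.11 (1.58, adjusted p = 0.0769), and called C04F5.9 (1.03, adjusted p = 0.0307). Results that were not called changed sign as follows. With the replicate block HC125 over F21 was −0.22 for hrde-1, −0.12 for ugt-63 and 0.079 for F14F9.4. hrde-1 ranged from −0.052 without HC125 replicate 3 to 0.15 without HC125 replicate 2, and was −0.17 without HC125 replicates 3 and 4. islo-1, at 0.01 in hrde-1;HC125 over F6, was −0.045 with library size alone, −0.067 with the replicate block and −0.0018 with only the 2 groups, −0.33 without F6 replicate 2, and ranged from −0.83 without hrde-1;HC125 replicate 1 to 0.46 without hrde-1;HC125 replicate 2. In that pair his-68 passed the threshold with DESeq2's size factors in edgeR, no filter, the replicate block and only the 2 groups (adjusted p = 0.0477, 0.0284, 0.0108 and 0.00616). For hrde-1;HC125 against F6, 1816 genes (769 higher and 1047 lower) became 3412 (1601 and 1811) with only the 2 groups, and 1085 to 1161 (393 to 515 and 646 to 692) when 1 library was left out. Without HC125 replicate 1 and F21 replicate 2, the shallowest libraries, an omission chosen after seeing the data, 15 of the 26 calls remained and 8 were new. dmd-9 was not called with DESeq2's size factors in edgeR (adjusted p = 0.0523). Depth limits small values: 3 counts in the shallowest library came to 6.45 CPM in HC125 and 5.83 CPM at F21.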
